A study of Aedes aegypti with 19 samples.

Results

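The comparison described here is that of ovaries from blood-fed (BF) and sugar-fed (SF) females of the mosquito Aedes aegypti on day 10 post blood meal (PBM). It rests on 6 of the 19 libraries of the series, namely the 3 titled Blood_Fed and the 3 titled Sugar_Fed for that day, which carry replicate numbers 1, 2 and 4 in both groups. BF females of a colony from Poza Rica, Mexico, took a single meal of sheep blood at an age of 4 to 7 days, and SF females of the same age received no blood. Both groups were kept on 10% sucrose, so that sugar feeding and age were shared and the blood meal was the treatment. BF females had been given ovitraps and most had laid by day 10, and eggs that remained in an ovary were removed by hand, which limits these samples as a picture of the intact organ. Each library, prepared with a stranded kit, was made from the total RNA of pooled ovaries after depletion of ribosomal RNA. The other libraries come from BF and SF ovaries of days 3 and 20, and no library is shared between days. All 19381 genes that the deposited tables list were considered, of which 13297 had enough exon reads to be tested.

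An Aedes female needs a blood meal to mature a batch of eggs. The meal triggers ecdysteroid hormone production, the fat body makes yolk protein precursors that the growing oocytes take up, and follicle cells lay down the eggshell before the eggs are laid. After oviposition the next follicles of each ovariole stay arrested until another meal. The paper describes most BF females as having left the egg cycle by day 10, much like SF females. Follicle stages were not examined here.

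Between 41559399 and 53197825 exon reads per SF library and between 40747159 and 50707357 per BF library were counted. Reads outside exons made up 4.17%, 4.43% and 5.18% of the gene reads in SF and 4.93%, 5.83% and 5.70% in BF replicates 1, 2 and 4, so that the groups overlapped (exact two-sided permutation test, p = 0.2, where 0.1 is the smallest that 3 against 3 libraries allow). The replicates of each group differed beyond the noise of sampling (chi-square per degree of freedom from 20.3 upward). On the first principal component, which held 37.9% of the variance, scores ran from 17.7 to 38.7 in BF and from -38.4 to -23.4 in SF, and the second, with 21.2%, set replicate 4 of both groups apart. The tissue was checked by the germline genes osk, mael and PIWI4, whose summed TPM (the deposited level per transcript length) was 3689 to 4138 in SF and 3844 to 4390 in BF libraries. The genes looked at for other tissues were low. Fat body was not among these tissues, and Vcp, which the fat body secretes, is given below among the rises. The salivary gland symbols D7_1, D7_2, APY and SAAG-4 summed to 0.652 to 1.25 TPM in SF and 1.67 to 2.63 in BF, the 7 prophenoloxidases of hemocytes to 3.05 to 3.45 and 4.50 to 4.72, and ChAT, the acetylcholine enzyme of nerve cells, to 0.0277 to 0.0509 and 0.116 to 0.345. These 3 marker sums were higher in every BF than in every SF library. The salivary gland gene D7_1 was itself higher in BF, by a log2 fold change of 2.89 ± 0.86 (SE, edgeR, FDR p-value 0.0276), with 26.5% unique exon reads. It had 8 reads in SF and 60 in BF, and its call was lost without 4 of the libraries. The peptide gene TMOF had 0 reads in all 6, but it is not a marker of midgut tissue, so that midgut was not checked. Whether traces of other tissues take part in the differences below was not tested, and in pooled organs fewer cells of a type and less RNA per cell cannot be told apart.

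On day 10, many genes still differed between BF and SF ovaries. Of the 13297 genes tested, 2241 (16.9%) were DEGs at an FDR p-value under 0.05 in edgeR's quasi-likelihood test, with 961 higher (7.23%) and 1280 lower (9.63%) in BF ovaries. The rises were the larger changes. Past a log2 fold change of 1 there were 365 DEGs (2.74%), of which 286 were rises and 79 falls. The median log2 fold change was 0.72 among the called rises and -0.34 among the called falls, and 81.5% of the called falls were no larger than 0.5 on the log2 scale, against 28.2% of the called rises. The split between rises and falls depended on the scaling, since upper-quartile factors gave 1358 rises and 730 falls, moving the share of rises from 42.9% to 65.0%. The excess of rises past a log2 fold change of 1 was seen under this scaling too, with 354 against 52. Without BF replicate 2, the count of DEGs fell to 910, without SF replicate 4 to 1361 and without SF replicate 2 to 1491, and the count past a log2 fold change of 1 fell to 204 without BF replicate 2. Of the 910 genes called without BF replicate 2, 897 were among the 2241 with the same direction.

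Under the main scaling, rises and falls came from different ranges of expression. Genes were ranked by their mean deposited TPM over the 6 libraries and divided into 4 classes of equal size. In the second class, from 1.00 to 15.5 TPM, 500 of 3324 genes rose and 96 fell. In the third, from 15.5 to 55.6 TPM, 207 rose and 646 fell, and in the highest 89 rose and 505 fell. The median log2 fold change over all tested genes of a class was 0.33 in the lowest, 0.19 in the second, -0.10 in the third and -0.07 in the highest. Over all genes tested the median was 0.0029, and under upper-quartile factors 0.0786, a shift of 0.0757. The classes were not counted under those factors. How far the falls of the third and highest classes depend on the scaling was not tested. The low-count filter ran over all 6 groups, so that a gene low in SF could be tested through higher counts in BF. Without the filter the median over LncRNAs was 0.045, beside 0.115 with it, and over protein-coding genes 0.0095, beside -0.0041. How far the filter shaped the medians of the lower classes was not tested. The median called rise had a mean of 6.19 TPM and the median called fall one of 47.2 TPM. Shares of the gene lists below are mostly set beside those of all genes tested. Whether they differ from the shares among genes of the same level was not tested. In the lowest class 123 rises and 30 falls were past a log2 fold change of 1, in the second 148 and 42, in the third 11 and 6 and in the highest 4 and 1, so that the larger changes were mostly in genes with little RNA in the ovary, as the plot of change against level shows. By biotype, 914 of 11876 protein-coding genes rose and 1256 fell, 40 of 1337 long non-coding RNAs (LncRNAs) rose and 23 fell, and 7 of 47 small nuclear RNA (snRNA) genes rose and 1 fell.

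**Figure D1:**
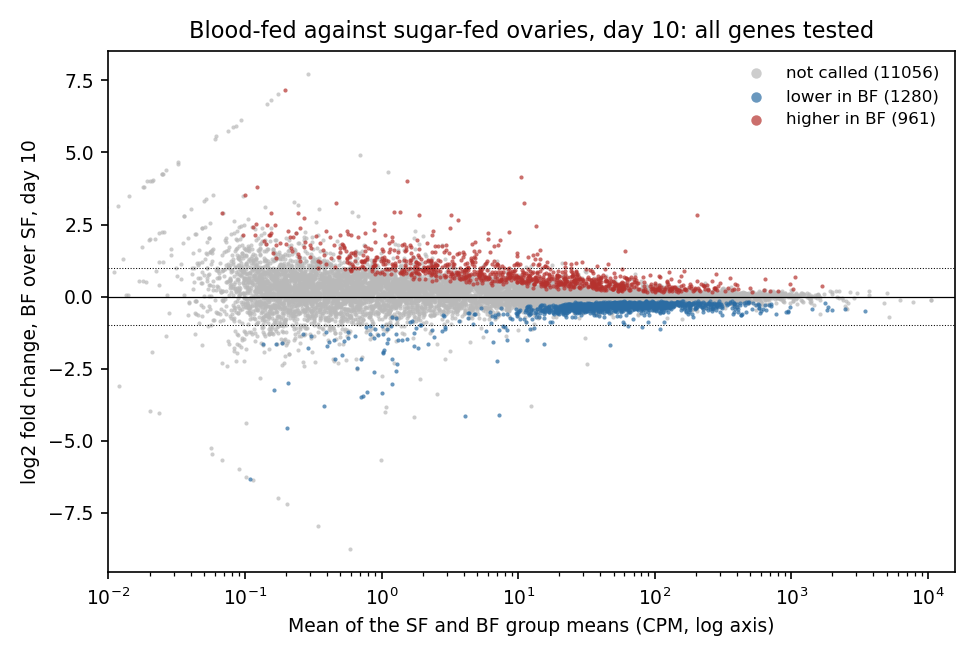
Log2 fold change of BF over SF ovaries on day 10 (vertical axis) against the mean of the SF and BF group means in CPM (horizontal log axis) for the genes tested, each point a gene; red points are the 961 called rises, blue points the 1280 called falls and grey points the genes not called, and dotted lines mark a log2 fold change of 1 in either direction. The rises spread upward at low and middle levels, with 286 past the dotted line, while most falls form a thin band just below 0 at higher levels.

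The largest rises were in protein-coding genes that the files give by ID alone. AAEL006138, on chromosome 3 from 68205694 to 68212449 (AaegL5.0), had 10, 8 and 8 exon reads in SF replicates 1, 2 and 4 and 168, 141 and 100 in BF. The groups were far apart, and the log2 fold change was 4.00 ± 0.50 (SE) with an FDR p-value of 2.15e-04. AAEL010434, on the same chromosome from 67489863 to 67496592, had 20, 9 and 16 reads in SF and 168, 60 and 122 in BF (log2 fold change 2.95 ± 0.45, FDR p-value 7.27e-04). AAEL006126 had 12, 15 and 12 reads in SF and 66, 47 and 65 in BF (2.21 ± 0.34, FDR p-value 7.27e-04), and with AAEL006156 and AAEL006138 it formed a run of 3 neighbouring tested genes, all past a log2 fold change of 1. Vcp, vitellogenic carboxypeptidase, is an enzyme precursor that the Aedes fat body secretes after a blood meal and that oocytes take up with the yolk. It had 38, 55 and 26 reads in SF and 252, 191 and 116 in BF, and rose by a log2 fold change of 2.28 ± 0.51 (FDR p-value 6.58e-03). All 4 genes were below 5 CPM in every library, were called without each single library and rose on days 3 and 20 as well. AAEL006138 overlaps AAEL019501 and Vcp overlaps AAEL006543 on the opposite strand, so that their reads are less certain.

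Other large rises had been larger still on day 3. AAEL005212, on chromosome 2 from 113806119 to 113807172, was the most abundant of them per length (mean of 658 TPM in BF), with 56.9, 50.1 and 42.0 CPM in SF and 561, 276 and 234 CPM in BF (log2 fold change 2.85 ± 0.58, FDR p-value 5.35e-03). Its neighbour AAEL005192, from 113794685 to 113795266, had the largest rise that met the conditions for naming, with 65, 52 and 45 reads in SF against 1906, 303 and 721 in BF (4.16 ± 1.11, FDR p-value 0.0210). The BF libraries differed widely among themselves, and the call was lost without any of the 3 SF libraries or BF replicate 1, with FDR p-values of at most 0.0793. AAEL009018 on chromosome 1 went from 1.40, 1.63 and 3.42 CPM to 32.7, 16.4 and 10.7 CPM (3.25 ± 0.69, FDR p-value 6.76e-03). AAEL020112 had 14, 18 and 10 reads in SF and 147, 112 and 52 in BF (2.92 ± 0.62, FDR p-value 6.07e-03). In limma-voom AAEL005192, AAEL009018 and AAEL020112 were not called, with FDR p-values of 0.0990, 0.0611 and 0.0685. Groups without overlap were a condition for naming these 4 genes. Replicate 1 was the highest of the BF libraries each time. On day 3 the log2 fold changes were 9.43, 6.45, 7.06 and 6.32 for AAEL005192, AAEL005212, AAEL009018 and AAEL020112, and the difference between the days was called for each (FDR p-values of the interaction 0.0310, 0.00326, 0.00823 and 0.00933).

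The largest falls were in genes with few reads. AAEL017418 had 39, 15 and 124 reads in SF and 5, 4 and 8 in BF (log2 fold change -3.43 ± 0.91, FDR p-value 0.0162). AAEL014757 had 12, 12 and 18 reads in SF and 0, 3 and 1 in BF (-3.24 ± 0.92, FDR p-value 0.0214). AAEL023980 had 108, 202 and 16 in SF and 9, 15 and 12 in BF (-3.03 ± 0.97, FDR p-value 0.0440), and AAEL020459 13, 12 and 26 against 1, 5 and 0 (-2.99 ± 0.75, FDR p-value 0.0112). Groups without overlap were a condition for naming these genes. Each call was lost without at least 2 of the 6 libraries, with BF replicate 1 among them in all 4 and FDR p-values up to 0.161. On total gene reads the value of AAEL020459 was -0.59, and in limma-voom AAEL017418 and AAEL023980 were not called (FDR p-values 0.0748 and 0.108). The better expressed AAEL009695 had 456, 546 and 631 reads in SF and 79, 69 and 197 in BF (-2.23 ± 0.63, FDR p-value 0.0252), and AAEL006064 43, 47 and 69 reads against 6, 7 and 15 (-2.48 ± 0.72, FDR p-value 0.0247). For both, omitting SF replicate 4, BF replicate 1 or BF replicate 2 ended the call (FDR p-values up to 0.121). Among LncRNAs, AAEL021781 on an unplaced scaffold rose from 4.09, 2.42 and 2.41 CPM to 12.7, 15.2 and 14.4 CPM (2.24 ± 0.27, FDR p-value 2.03e-04) and AAEL022947 on chromosome 1 from 3.00, 1.96 and 1.54 to 8.99, 10.6 and 10.2 CPM (2.19 ± 0.29, FDR p-value 2.50e-04). AAEL022947 overlaps AAEL011644 on the opposite strand. AAEL024146 fell from 90, 36 and 90 reads to 13, 11 and 11 (-2.61 ± 0.53, FDR p-value 3.71e-03) and AAEL023754 from 64, 17 and 98 to 3, 5 and 8 (-3.47 ± 0.81, FDR p-value 8.24e-03). Calls of the 4 LncRNAs held without each library in turn.

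**Figure D2:**
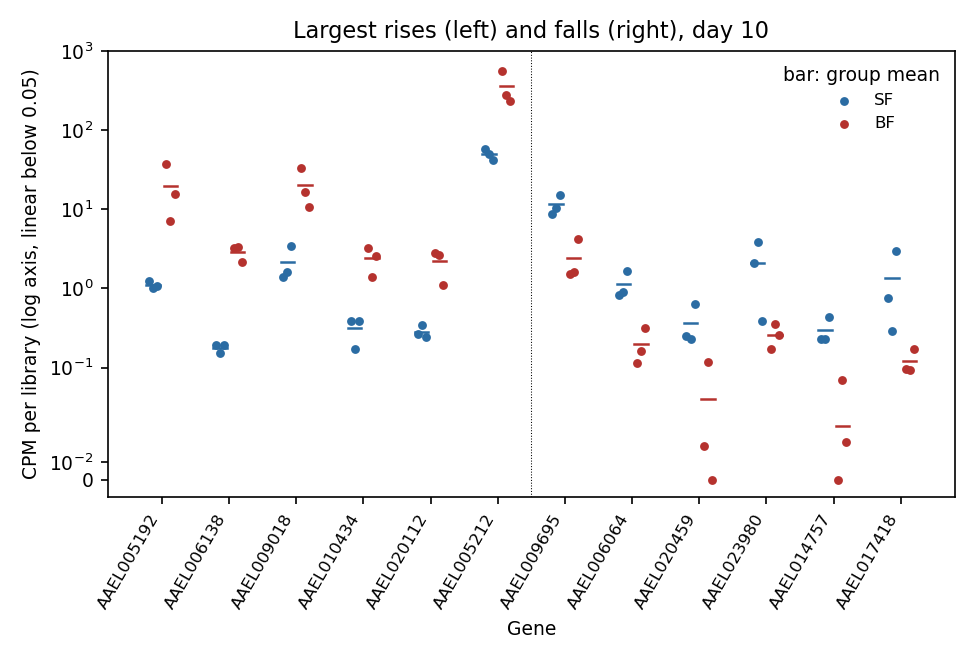
CPM in each library (vertical axis, log scale that turns linear below 0.05) for the 6 largest rises (left of the dotted line) and the 6 largest falls (right) among protein-coding genes, with SF libraries in blue, BF libraries in red and short bars at the group means. The genes were chosen among those whose BF libraries lie wholly above or wholly below the SF libraries. AAEL005212 reaches 561 CPM, while AAEL014757 and AAEL020459 each have a BF library at 0.

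Of 4 listed P450s of steroid hormone metabolism 1 was called, as a rise (25%, beside 7.23% of all genes tested). Ecdysteroids are made from cholesterol by a chain of P450 enzymes. CYP315A1, which carries out one of the last hydroxylations in that chain, had 73, 75 and 65 reads in SF and 235, 181 and 185 in BF ovaries. With 1.40, 1.44 and 1.57 CPM against 4.53, 4.25 and 3.94, the groups were tight and well separated, and the rise of 1.53 ± 0.17 on the log2 scale had an FDR p-value of 1.11e-04. It was also higher in BF ovaries on days 3 (1.92) and 20 (1.24). The other 3 listed P450s were not called on day 10. CYP307A1, an early enzyme of the chain, had 14.9, 17.4 and 20.7 CPM in SF and 8.24, 11.8 and 12.5 in BF without overlap (-0.71 ± 0.28, FDR p-value 0.0877). CYP314A1, which makes the active hormone, had a log2 fold change of -0.40 ± 0.23 (FDR p-value 0.260) and CYP18A1, which inactivates it, one of 0.18 ± 0.28 (FDR p-value 0.704). Of the receptors and regulators, EcR and USP, the partners of the ecdysone receptor, had changes of 0.07 ± 0.06 and -0.02 ± 0.05, and E75 and HR4, ecdysone-induced nuclear receptors, of 0.15 ± 0.08 and 0.17 ± 0.12, and 0 of the 4 were called by edgeR, DESeq2 or limma-voom, or had an unadjusted p under 0.05. Without BF replicate 4, HR4 was called (FDR p-value 0.0217).

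A list of 20 genes, drawn up for yolk, eggshell, hormone, ferritin and germline and including Vcp, held 4 rises, those of AAEL006138, AAEL010434, AAEL006126 and Vcp given above, and 1 fall. These were 20% and 5% of the list, beside 7.23% and 9.63% of all genes tested. The IDs other than Vcp were put together without a source that names them, so that their membership is unverified. The fall was that of AAEL010097. It was highly expressed, with 3703, 4336 and 4215 CPM in SF and 2877, 2676 and 3120 in BF, and had a log2 fold change of -0.50 ± 0.10 (FDR p-value 3.98e-03). It overlaps AAEL022847 on the opposite strand. The other 15 ranged from -0.19 to 1.24 in log2 fold change.

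Among detoxification genes, P450s of 2 families held the most rises. P450s of the CYP6 and CYP9 families are enzymes that insects use on plant compounds and insecticides, among other substrates. Of 55 listed, 45 were tested, 14 rose (31.1%, beside 7.23% of all genes tested) and 0 fell (beside 9.63%). Of the 45, 40 were higher in BF ovaries, with a median log2 fold change of 0.73 beside 0.00294 over all genes tested. The summed TPM of the group was 83.1, 80.8 and 77.9 in SF and 138, 150 and 117 in BF. CYP6M9 had 77, 86 and 28 reads in SF and 199, 126 and 117 in BF (1.28 ± 0.30, FDR p-value 7.88e-03). CYP9M6 went from 12.2, 9.85 and 8.17 CPM to 25.3, 21.4 and 13.3 (0.98 ± 0.21, FDR p-value 5.11e-03), and CYP9J9 from 6.75, 7.48 and 5.71 to 9.97, 10.4 and 11.8 (0.69 ± 0.14, FDR p-value 3.55e-03). CYP6N12 (2, 2 and 3 reads against 24, 12 and 5), CYP9J17 (1.24 ± 0.40) and CYP6N13 (1.18 ± 0.35) were called too, but lost the call without at least 3 of the 6 libraries, with FDR p-values up to 0.164.

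A stretch of chromosome 2 held 7 of these 14 calls. Between CYP6M10 and CYP6N9, from 419122003 to 419289644, lie 12 CYP6 genes, of which 11 were tested, all 11 were higher in BF ovaries and 7 were called, namely CYP6M10, CYP6M9, CYP6M6, CYP6Y3, CYP6N13, CYP6N12 and CYP6N9. Their log2 fold changes ran from 0.49 to 2.49. The remaining 34 tested members of these families held the other 7 calls, and 29 of them were higher in BF ovaries. The fold of the summed CPM was 1.63 inside the stretch and 1.60 outside it. This stretch was chosen after its values had been seen. CYP6M6 had 1.70, 1.98 and 2.05 CPM in SF and 4.17, 4.53 and 3.75 in BF (1.12 ± 0.22, FDR p-value 3.10e-03). CYP6Y3, the best expressed of the stretch, had 923, 862 and 613 reads against 1183, 1032 and 1030 (0.49 ± 0.12, FDR p-value 8.51e-03). The count of 14 rises in the whole group went down to 6 without SF replicate 2, SF replicate 4 or BF replicate 2, to 8 without BF replicate 1, and to 10 and 13 without the other 2 libraries, with 0 falls each time.

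Of 29 tested CYP4 and CYP325 genes, 2 rose (6.90%, near the 7.23% of all genes tested) and 0 fell, CYP4G36 from 315, 335 and 279 CPM to 366, 419 and 348 (0.29 ± 0.09, FDR p-value 0.0333) and CYP4D23 (0.55 ± 0.18, FDR p-value 0.0397), and both calls were lost without at least 4 of the libraries. CYP329B1 (-0.54 ± 0.12) and CYP12F8 (-0.33 ± 0.09) fell among 10 other P450s (20%, beside 9.63% of all genes tested). Of 20 glutathione transferases, enzymes that couple glutathione to reactive compounds, 10% rose and 5% fell, beside 7.23% and 9.63% of all genes tested. The rises were GSTT4 (0.67 ± 0.16) and GSTS1 (0.43 ± 0.13). GSTZ1 fell from 13.5, 14.5 and 13.9 CPM to 8.26, 7.37 and 8.89 (-0.77 ± 0.12, FDR p-value 7.46e-04) and overlaps AAEL011936 and AAEL011935 on the opposite strand. Among 17 peroxidases and dismutases 3 rose (17.6%, beside 7.23% of all genes tested) and 2 fell (11.8%, near the 9.63% of all genes tested). HPX2, a heme peroxidase, went from 734, 683 and 550 reads to 1646, 1468 and 1191 (1.18 ± 0.21, FDR p-value 2.29e-03). HPX8A, the more abundant of these heme peroxidases, went the other way from 1518, 1680 and 1633 CPM to 1248, 1135 and 1231 (-0.42 ± 0.10, FDR p-value 6.72e-03). TPX4, a thioredoxin peroxidase, rose by 1.23 ± 0.30, GPXH2, a glutathione peroxidase homologue, by 0.83 ± 0.23, and MNSOD2, a manganese superoxide dismutase, fell from 90, 57 and 87 reads in SF to 33, 17 and 27 in BF (-1.60 ± 0.45, FDR p-value 0.0212).

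The Toll pathway carries the signal of the cytokine Spätzle through Toll receptors and the kinase Pelle to the Rel protein REL1A. Of 19 tested members 6 rose (31.6%, beside 7.23% of all genes tested) and 2 fell (10.5%, beside 9.63%), with a median log2 fold change of 0.52. Without BF replicate 2 the rises were 2, without SF replicate 1 they were 3, and without the other 4 libraries 4 or 5. The receptor TOLL5B had 4.09, 3.37 and 1.59 CPM in SF and 11.7, 11.8 and 7.12 in BF (1.75 ± 0.40, FDR p-value 7.41e-03), and the ligand SPZ4 2.85, 2.75 and 3.04 against 5.29, 6.55 and 5.48 (1.00 ± 0.21, FDR p-value 3.76e-03). TOLL7 (0.65), TOLL11 (0.63), TOLL9A (0.55) and TOLL5A (0.37) were also called, TOLL5A with overlapping groups, and each lost the call without at least 3 of the libraries. The ligand SPZ3A fell from 7.77, 12.2 and 12.5 CPM to 5.11, 5.68 and 4.97 (-1.04 ± 0.32, FDR p-value 0.0339) and PELLE from 15.7, 15.5 and 18.5 to 13.9, 13.1 and 13.3 (-0.30 ± 0.10, FDR p-value 0.0463), both calls being lost without at least 5 of the libraries. The shared components downstream had values near 0, with TUBE at -0.02 ± 0.06, the inhibitor cact at -0.09 ± 0.05 and REL1A at -0.07 ± 0.08.

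The IMD pathway, in which peptidoglycan receptors act through the adaptor IMD on the Rel protein REL2, showed one clear rise. IMD had 324, 304 and 309 reads in SF and 751, 644 and 604 in BF, that is 6.20, 5.85 and 7.45 against 14.5, 15.1 and 12.9 CPM. The groups were tight and apart, with a log2 fold change of 1.12 ± 0.14 and an FDR p-value of 2.03e-04, and the change was much the same on days 3 (0.91) and 20 (1.05). The receptor PGRP-LE rose as well (0.95 ± 0.26, FDR p-value 0.0180). The kinase IKK2, whose exon reads were 48.5% unique, fell from 99.2, 106 and 107 CPM to 79.0, 77.9 and 86.1 (-0.36 ± 0.06, FDR p-value 1.79e-03), the caspase Dredd from 17.6, 17.9 and 17.7 to 14.5, 11.2 and 11.7 (-0.50 ± 0.11, FDR p-value 4.57e-03) and the kinase TAK1 from 44.5, 46.6 and 52.3 to 34.4, 39.3 and 42.7 (-0.30 ± 0.09, FDR p-value 0.0347). REL2 itself, at -0.08 ± 0.22, was not called, nor were STAT, HOP and DOME of the JAK-STAT pathway, at 0.06 ± 0.05, -0.06 ± 0.07 and 0.11 ± 0.08. In all, 3 of 19 members rose, PIAS1, an inhibitor of STAT, among them (0.25 ± 0.07), and 3 fell. These shares, 15.8% each, stood beside 7.23% and 9.63% of all genes tested. Without SF replicate 2, SF replicate 4 or BF replicate 2 only 1 rise was called, and without any of these or BF replicate 1 only 2 falls. PGRP-LE lost its call without 3 of the libraries, and PIAS1 and TAK1 (a fall) without 4 each.

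Among extracellular immune genes, 6 of 49 CLIP serine proteases, which act in cascades ahead of Toll and melanization, rose and 0 fell. The rises were 12.2% of the list, beside 7.23% of all genes tested, of which 9.63% fell. These shares depended on level. In the second TPM class given above, 500 of 3324 genes rose and 96 fell, and in the lowest 165 of 3325 rose and 33 fell. Whether CLIP genes rose more often or fell less often than genes of the same level was not tested. The CLIP rises were 3 without SF replicate 1, SF replicate 4 or BF replicate 2. CLIPE10 had 20, 59 and 28 reads in SF and 143, 169 and 92 in BF (1.98 ± 0.41, FDR p-value 4.20e-03), and CLIPE12 went from 16.5, 14.5 and 12.3 CPM to 24.4, 25.2 and 23.5 (0.75 ± 0.13, FDR p-value 1.62e-03). CLIPB45 (1.11), CLIPC11 (1.10), CLIPB31 (1.05) and CLIPD6 (0.70) were the other 4, each lost without at least 1 library. Of the leucine-rich repeat LRIM genes 16 of 16 tested had a value above 0, with a median of 0.70. There were 3 calls (18.8%, beside 7.23% of all genes tested), of which 1 was left without SF replicate 4 or BF replicate 2. LRIM16 had 9.01, 10.6 and 5.25 CPM in SF and 21.8, 23.6 and 15.9 in BF (1.30 ± 0.28, FDR p-value 6.58e-03) and overlaps CCAPR on the opposite strand, while the calls of LRIM24 (1.28, with overlapping groups) and LRIM18 (0.81) were lost without at least 3 libraries. Of 40 pattern recognition genes 2 rose (5%), beside 7.23% of all genes tested. GALE3, a galectin, went from 20.1, 17.1 and 26.1 CPM to 40.7, 44.2 and 39.2 (0.97 ± 0.24, FDR p-value 0.0139) and the scavenger receptor SCRB17 had a log2 fold change of 0.42 (FDR p-value 0.0335). Their calls were lost without 2 and 3 libraries, and the count for the list was 0 without BF replicate 2 and 1 without SF replicate 2, SF replicate 4 or BF replicate 1. Of 14 serpins and 6 prophenoloxidases 0 were called by edgeR, DESeq2 or limma-voom, 3 serpins and 0 prophenoloxidases had an unadjusted p under 0.05, and the median of the prophenoloxidases was 0.60. The hemocyte marker sum given above is made of these same prophenoloxidases, and is no separate evidence. It was higher in every BF library, the direction of the immune rises, and whether hemocytes take part in those rises was not tested.

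Of 15 tested defensins, cecropins, gambicin and lysozymes, 0 were called on day 10 by edgeR, DESeq2 or limma-voom and 2 had an unadjusted p under 0.05, with a median log2 fold change of -0.26. The 9 defensins and cecropins together had 4.19, 0.962 and 16.1 CPM in SF replicates 1, 2 and 4 and 3.39, 7.23 and 4.16 CPM in BF. SF replicate 2 was the lowest library for all 9 genes and SF replicate 4 the highest for 8, so that the SF group alone spanned the BF group. Their log2 fold changes ran from -1.19 to 0.53, with standard errors of 0.75 to 1.66, so that a change of severalfold in either direction lay within the error. On day 3 all 9 had been called as rises, by 4.10 to 7.15 on the log2 scale, and the interaction between the days was called for all 9 (FDR p-values up to 0.0202). The day 20 values of 1.58 to 3.93 were not called.

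**Figure D3:**
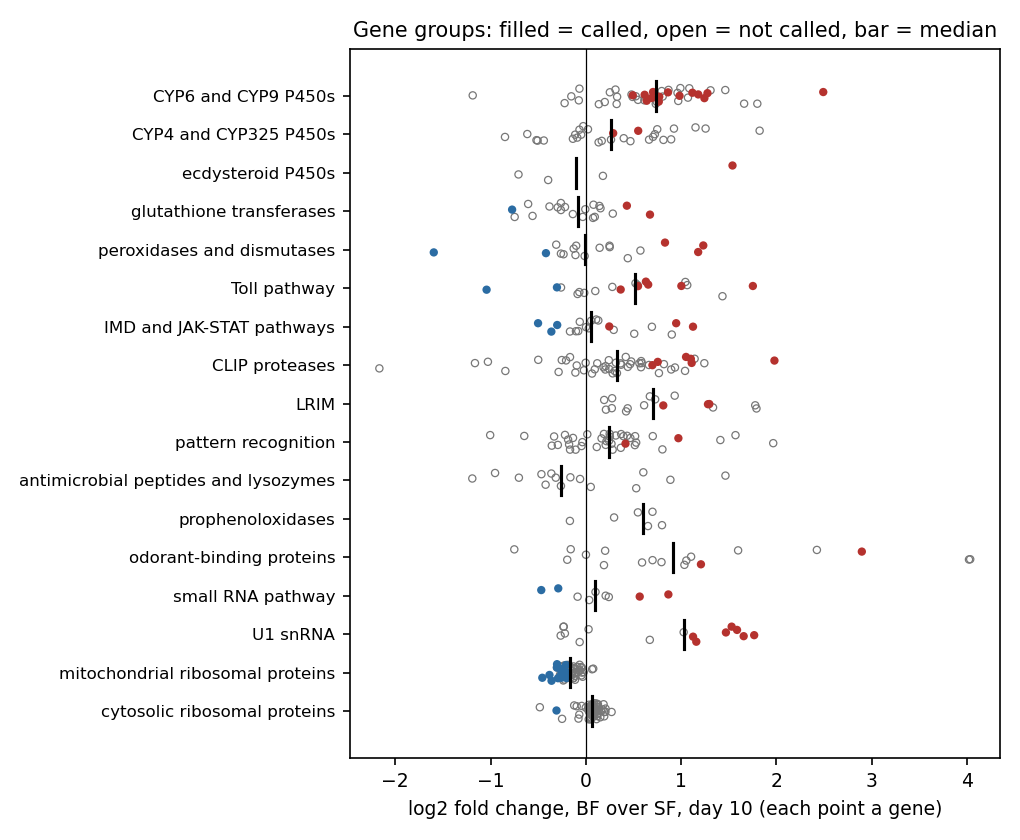
Log2 fold change of BF over SF ovaries on day 10 (horizontal axis) for the tested members of 17 gene groups (rows), each point a gene, with called rises in red, called falls in blue, genes not called as open circles and the group median as a black bar. The CYP6 and CYP9 row lies mostly right of 0, the row of mitochondrial ribosomal proteins left of it in a narrow band, and the U1 row in a high and a near-zero cluster; the 2 open points near 4 among odorant-binding proteins are OBP40 and OBP41, which had 0 reads in every SF library.

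Of 41 listed odorant-binding proteins, which carry odorants and other small hydrophobic molecules, 18 were tested and 2 rose (11.1%, beside 7.23% of all genes tested). OBP15 had 69, 93 and 45 reads in SF and 178, 138 and 143 in BF, or 1.32, 1.79 and 1.08 against 3.43, 3.24 and 3.05 CPM, and rose by a log2 fold change of 1.21 ± 0.23 (FDR p-value 2.89e-03). OBP35, the other call, had 0, 1 and 1 reads in SF and 7, 7 and 3 in BF, a ratio of 8.77 with an exact 95% interval of 2.08 to 78.2 that covers counting error only, and its call was lost without 5 of the libraries. Orco, the partner that odorant receptors need, fell from 32, 44 and 43 reads to 9, 11 and 8 (-2.04 ± 0.41, FDR p-value 3.34e-03), but on total gene reads its value was -0.65 and not called (FDR p-value 0.0769). The odorant receptor Or55 rose from 64, 94 and 60 reads to 121, 129 and 153 (0.94 ± 0.22, FDR p-value 8.32e-03). The ionotropic co-receptor Ir8a had 5.78, 6.42 and 5.74 CPM in SF and 8.20, 16.4 and 15.9 in BF (1.17 ± 0.37, FDR p-value 0.0362) and lost the call without 5 of the libraries. Of the pickpocket channels ppk201 rose (1.14 ± 0.34) and ppk322 fell from 1110, 854 and 542 reads to 313, 493 and 258 (-1.14 ± 0.31, FDR p-value 0.0183). The gustatory receptor Gr76 fell with overlapping groups (-1.38, FDR p-value 0.0409), but had 0.046 on total gene reads. Of 13 tested odorant receptors 7.69% rose and 7.69% fell, as did the same shares of 13 tested pickpocket channels. Of 19 tested gustatory receptors 0 rose and 5.26% fell. These shares were near or below the 7.23% rises and 9.63% falls of all genes tested. Calls of ppk201, ppk322 and Gr76 were lost without at least 3 libraries.

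Of 9 small RNA pathway genes 2 rose and 2 fell, 22.2% each, beside 7.23% and 9.63% of all genes tested. The called PIWI and Argonaute genes thus did not share a single direction. PIWI proteins bind the piRNAs that silence transposons in the germline, and AGO2 is the effector of the antiviral siRNA pathway. PIWI2 had 86.3, 81.1 and 105 CPM in SF and 142, 172 and 182 in BF (0.87 ± 0.23, FDR p-value 0.0206), and PIWI5 30.5, 36.2 and 29.8 against 50.6, 49.2 and 43.1 (0.57 ± 0.14, FDR p-value 9.94e-03). AGO2 fell from 86.5, 92.3 and 97.5 CPM to 63.8, 65.0 and 70.9 (-0.47 ± 0.10, FDR p-value 4.78e-03), in the opposite direction to its day 3 value of 0.59. PIWI4 fell with overlapping groups (-0.29 ± 0.10, FDR p-value 0.0447), and PIWI3 (0.21 ± 0.16), PIWI6 (0.10 ± 0.06), PIWI7 (0.24 ± 0.37), AGO1b (-0.09 ± 0.06) and loqs (0.03 ± 0.07) were not called. PIWI2 lost the call without 4 of the libraries and PIWI4 without 4, whereas the calls of PIWI5 and AGO2 held without each. AGO2 overlaps AAEL023686 on the opposite strand, and the deposited positions of PIWI5 and PIWI6 overlap each other.

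Among snRNA genes the rises were all in U1, the snRNA that recognises the start of introns in pre-mRNA. The genome carries 15 listed U1 copies, and 7 rose (46.7%, beside 7.23% of all genes tested) and 0 fell. All 7 were among the 9 copies of 1 cluster, U1_3 to U1_11, that lies on chromosome 3 between 235739099 and 235782975 and was taken as a group after its values had been seen. In this cluster 9 of 9 copies had every BF library above every SF library, with log2 fold changes of 0.67 to 1.77, where the groups did not overlap in 37.5% of all genes tested. U1_9 had 105, 126 and 83 reads in SF and 436, 165 and 260 in BF (1.47 ± 0.28, FDR p-value 2.34e-03) and U1_6 53, 72 and 47 against 272, 120 and 186 (1.77 ± 0.35, FDR p-value 3.22e-03). U1_4 (1.53 ± 0.31), U1_7 (1.66 ± 0.36) and U1_8 (1.59 ± 0.32) had FDR p-values of 3.43e-03, 4.97e-03 and 3.62e-03. U1_3 and U1_5 were just outside the threshold (FDR p-values 0.0512 and 0.0566). The other 6 copies, U1_1, U1_2 and U1_12 to U1_15, overlapped between groups and ranged from -0.26 to 0.03. Summed over copies, the cluster had 21.6, 23.7 and 20.8 CPM in SF and 62.5, 37.0 and 50.5 in BF, and the other 6 copies 337, 323 and 296 in SF and 310, 270 and 281 in BF. Most U1 reads thus came from copies that were not called. BF replicate 2 was the lowest BF library for 9 of the 9 copies, and the count of called copies was 6 to 8 when single libraries were left out. U1_10 and U1_11 had 0% unique reads, so that their reads cannot be told apart from those of similar copies, while 85.5% to 99.8% of the exon reads of the other 7 copies were unique. Of the 6 U2, 4 U4 and 5 U5 copies tested 0 were called by edgeR, where 1 U2 copy had an unadjusted p under 0.05 and 1 was called by DESeq2, and U6_6, without unique reads, fell (-1.01, FDR p-value 0.0462).

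**Figure D4:**
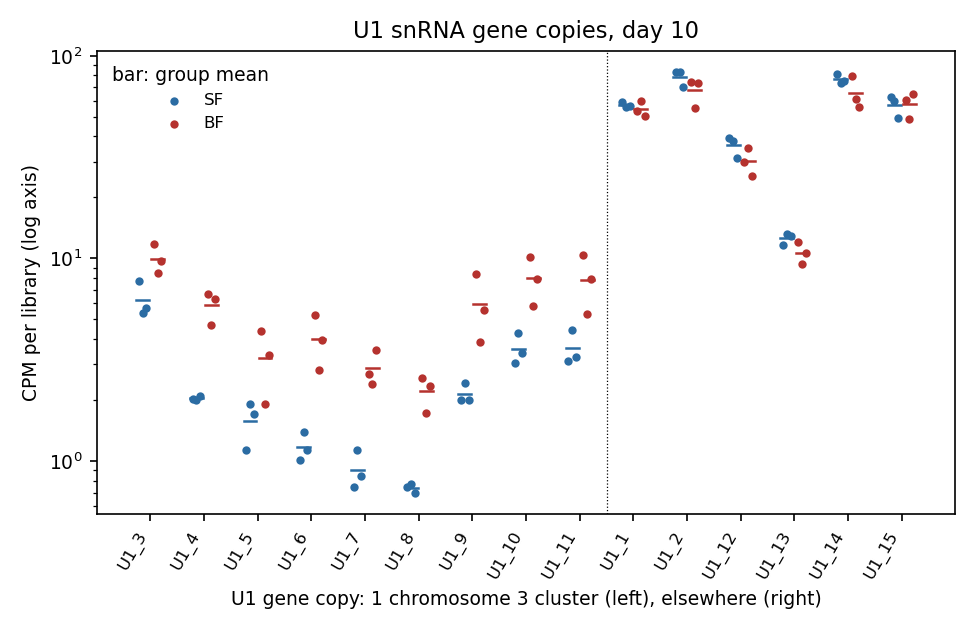
CPM in each library (vertical log axis) for the 15 U1 snRNA gene copies, with SF libraries in blue, BF libraries in red and short bars at group means; copies left of the dotted line lie in 1 cluster on chromosome 3 and copies right of it elsewhere. Red points lie above blue points for each of the 9 clustered copies and among them for the 6 others, which are the more abundant ones.

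Falls of small size were seen in several groups of basic cell functions. Lists of mitochondrial ribosomal proteins, Mediator subunits and autophagy genes were chosen after their values had been seen and are given as a description. Of 58 mitochondrial ribosomal proteins 14 fell (24.1%, beside 9.63% of all genes tested) and 0 rose (beside 7.23%), and 56 had values below 0, with a median of -0.16. In the third and highest TPM classes given above, 19.4% and 15.2% of the genes fell and 6.23% and 2.68% rose. mRpL19 went from 64.0, 64.6 and 62.0 CPM to 52.5, 52.3 and 54.2 (-0.26 ± 0.05, FDR p-value 3.92e-03), and the steepest fall was that of mRpL44 (-0.46 ± 0.13), whose reads were 31.8% unique. Under upper-quartile scaling the falls were 6 and the median -0.09, and without BF replicate 2 the falls were 1, without SF replicate 1 or SF replicate 2 they were 6, and without the other 3 libraries 9 to 13. Of 18 subunits of Mediator, which links transcription factors to RNA polymerase, 6 fell (33.3%, and 3 without BF replicate 2), Med4 from 1177, 1022 and 781 reads to 830, 620 and 642 (-0.46 ± 0.10, FDR p-value 4.51e-03). Of 12 autophagy genes 4 fell (33.3%, and 1 without BF replicate 2, 2 without SF replicate 2, SF replicate 4 or BF replicate 1), APG4B from 75.8, 75.3 and 72.2 CPM to 63.5, 62.1 and 58.1 (-0.28 ± 0.06, FDR p-value 3.03e-03). Under upper-quartile scaling 4 Mediator subunits fell and 1 rose, and 3 autophagy genes fell. Cytosolic ribosomal proteins, by contrast, had 0 rises and 1 fall among 68 (RpL4_1, -0.31, a call lost without 3 libraries), with a median of 0.07, which upper-quartile scaling turned into 4 rises and 0 falls. Of 12 mitochondrial genome transcripts only 1 was called, as a rise (8.33%, near the 7.23% of all genes tested). This was COX1, a subunit of cytochrome oxidase, just inside the threshold, with 827, 981 and 645 CPM in SF and 1352, 1484 and 1075 in BF (0.67 ± 0.22, FDR p-value 0.04998). COX1 lost the call without 4 of the libraries.

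Many day 10 differences had the direction of those on the other days. Of the 2241 DEGs of day 10, 1611 were also called on day 3 with the same direction, 98 with the opposite direction and 532 were not called there, where 55.8% of the genes tested were called. For day 20, where 19% were called, the numbers were 1190, 0 and 1051. Called on neither of the other days were 135 rises and 126 falls. Of 2522 genes called on day 3 past a log2 fold change of 1, 481 (19.1%) kept their direction as calls of day 10, 2 were called with the other sign and 2039 (80.8%) were not called.

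The difference between the effects of day 10 and day 3 was itself called for 3664 genes (27.6%), among them 833 DEGs of day 10. In 302 of these the rise was smaller on day 10 than on day 3 and in 118 larger. In 227 the fall was smaller on day 10 and in 186 larger, opposite day 3 effects being counted as larger. AGO2 (-0.47 on day 10, 0.59 on day 3) and APG18A (-0.51 and 0.61) fell on day 10 after a rise on day 3, with interaction FDR p-values of 2.82e-05 and 0.00157, although the day 10 call of APG18A was lost without any of the 6 libraries. GSTZ1, IKK2, Ir8a, U1_4 and CYP4G36 were called on day 10 and not on day 3, and for them too the difference between the days was called. No gene differed between days 10 and 20 at an FDR p-value under 0.05 in edgeR or limma-voom, with 1129 genes at an unadjusted p under 0.05, and DESeq2 called 12. This does not show that the effects of the days were equal.

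**Figure D5:**
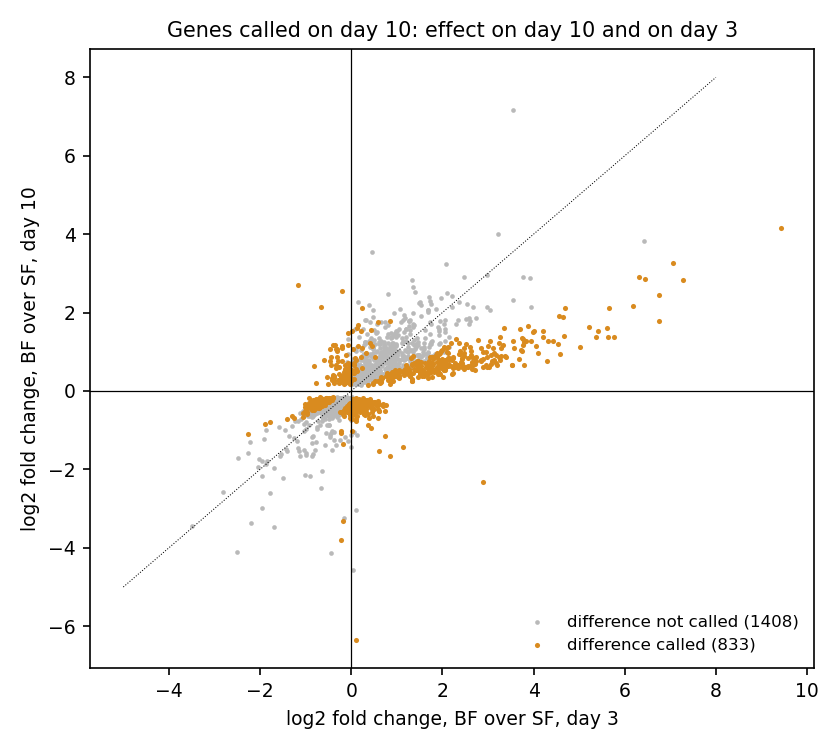
Log2 fold change of BF over SF ovaries on day 10 (vertical axis) against that on day 3 (horizontal axis) for the 2241 DEGs of day 10, each point a gene, with the 833 genes whose effects differed between the days in orange, the others in grey and a dotted line where both effects would be equal. Most points lie in the upper right and lower left quadrants, and the orange rises lie more often below the dotted line (302) than above it (118).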

How the data were processed

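Members and lists were chosen with earlier results of these data known. The authors trimmed the reads of each library, mapped them to AaegL5.0 and counted them per gene in the CLC genomics workbench, and the submitters' processing notes name FastQC. The library kit was stranded. Sources used here do not state, for the counting, the annotation release (a VectorBase transcript set is named for gene ontology), whether strand was used, or how reads that match several genes were treated. For each gene the authors deposited raw counts (reads in the gene, in exons and in introns, with the unique part of each) and TPM values, which served only for levels and sums.

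Counts of total exon reads were tested with edgeR 4.0.16 in R 4.3.3. All 19 libraries in 6 groups entered the fit (13 residual degrees of freedom, common biological coefficient of variation 0.166), after filterByExpr (minimum count 10, minimum total 15) and TMM scaling, with robust quasi-likelihood dispersions and a prior count of 0.125. Benjamini-Hochberg adjustment ran over 13297 genes, with calls made below an FDR p-value of 0.05. Errors are SE of the log2 fold change. CPM values are after TMM scaling, and principal components were taken from log2 CPM with a prior count of 2. P-values measure the spread between these pools of ovaries, and intervals cover counting error only. A gene with 1 to 3 reads in a group is given as a ratio with an exact interval. The model was tested on simulated counts.

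Named were, among DEGs with non-overlapping groups, 10 or more reads in each library of the higher group and at least 50% unique gene reads, the 6 largest rises and falls of protein-coding genes and the 2 of LncRNAs. Up to 4 called members per direction of each list, all members of the hormone, yolk and germline lists and genes that the study names for day 10 were selected too, and other members are given beside these for their role. The text does not describe each of the 119 genes selected by these rules, with inx2 and GPRCAL1 among those left out. Alternatives were DESeq2 1.42.0, limma-voom (limma 3.58.1), RLE and upper-quartile scaling, no filter, the 6 day 10 libraries alone, the replicate number as a block, gene reads, unique exon reads, a stricter FDR of 0.01, glmTreat at a log2 fold change of 1, and leaving out each library. Less certain, for a gene on the opposite strand that they overlap, are also CYP6M9, CYP4D23, TPX4, TOLL9A, PELLE, REL2, PGRP-LE, CLIPE12, LRIM18, LRIM24, Ir8a and ppk201. Sequences were not used here. Tables and plots used Python 3.11.15 (pandas 2.3.3, matplotlib 3.10.9, numpy 2.4.6, scipy 1.17.1).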

Additional observations from a re-analysis of the deposited data

Results flagged for a closer look

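For 7 of the named genes called on day 10, the effect of the blood meal was either larger than on day 3 or opposite to it, and the difference of the log2 fold changes, day 10 minus day 3, passed the interaction test of edgeR (FDR p-value under 0.05). The difference was -1.06 for AGO2, -1.12 for APG18A, -0.88 for GSTZ1 and -0.31 for IKK2, which were lower in BF ovaries on day 10. It was 1.52 for Ir8a, 1.31 for U1_4 and 0.37 for CYP4G36, which were higher. No outlier check was made within groups of 3 libraries.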

How the results depend on the processing

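Counts of DEGs under other tools, scalings and read types lay within 1.5 times of 2241, from 1945 (day 10 libraries alone) and 1946 (no low-count filter) to 2681 (total gene reads), with 2088 under upper-quartile and 2092 under RLE scaling, 2138 by limma-voom, 2192 on unique exon reads and 2653 by DESeq2. An FDR of 0.01 left 894 DEGs, 170 of them past a log2 fold change of 1, and a test against that fold change left 2, AAEL006138 and AAEL001683. DESeq2 called 12 genes for the difference between days 10 and 20 and edgeR 0. On total gene reads GPRVPR2 turned to 0.32 and Gr76 to 0.046. Leaving out single libraries gave 910 to 2084 DEGs, 204 to 412 past a log2 fold change of 1, 3144 to 3508 genes for the difference between days 10 and 3, 0 to 0 for days 10 and 20, and a difference in intron share of 0.68 to 1.18 percentage points. Of 97 genes selected for naming and called, some of them not described above, 42 were called without each library in turn and 55 were lost without at least 1, and the cause was not tested. Named calls no longer made were 16 with the day 10 libraries alone, 14 by limma-voom, 13 under upper-quartile scaling, 13 without the filter, 9 on gene reads (beside the 2 that turned), 6 under RLE scaling, 3 on unique exon reads and 1 by DESeq2. Replicate numbers were not taken to pair the samples, because the correlation of deviations, 0.110, 0.0449 and 0.179 for replicates 1, 2 and 4, was not above 0.1 for each. Each sample correlated best with its own number and replicate 4 of both groups stood apart on the second component. The paper describes numbers 1, 2 and 4 as biological replicates, and each number has samples of both feeding groups. It does not say what the samples of a number share. A shared source is thus possible from the design and the data, and the main fit did not account for it. With the replicate number as a block the DEGs were 2889 in all libraries and 2827 in the day 10 libraries alone, 421 and 411 past a log2 fold change of 1, 4204 for the difference between days 10 and 3 and 0 for days 10 and 20. With 3 libraries a group, genes with few reads are the least certain. Of the 2241 DEGs, 538 (24.01%) overlap a gene on the opposite strand, beside 23.3% of the genes tested, and 121 had fewer than 50% unique reads.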
